A study of Danio rerio with 6 samples.

Results

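The longest cytoplasmic tRNA reads of zebrafish eggs and embryos were those of 70 nt or more in the authors' deposited table of cytoplasmic reads. That length alone chose them, and it took 142 of the 3021 different read sequences, leaving 2879 of 60 to 69 nt. Wild-type (WT) zebrafish of the TU strain were sampled as mature eggs and as embryos of 5 stages, with 1 library each. The stages are 1cell, 256cell, sphere, shield and, at 24 hours, 24hpf. Each sample pooled about 50 to 100 whole eggs or embryos, and no stage was repeated, so differences between stages have no replicate check. Zebrafish embryos start broad transcription of their own genes after the 256cell stage and by sphere, so 3 of the libraries are from before and 3 from after that start. Per the labels' protocols, RNA of 60 to 120 nt was cut from a gel (60 to 100 nt in the descriptions of the samples), deacylated, end-repaired and treated with ALKB enzymes, which take some methyl groups off tRNA bases. In such bulk samples fewer cells of a type and less RNA per cell cannot be told apart.

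A tRNA brings an amino acid to the ribosome and reads the matching codon with its anticodon. It is transcribed as a precursor with a 5′ leader and a 3′ trailer, which RNase P and RNase Z cut away, and an enzyme then adds the bases CCA, to which the amino acid is joined. Reverse transcription starts at the 3′ end and can stop at modified bases, so a read may be shorter than the molecule it came from. The egg is loaded with maternal tRNAs, and the embryo makes its own once transcription begins.

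The sequences below are the most abundant long read of each of the 8 leading anticodons, as listed in the deposited table, with a terminal CCA in capitals. All of them end in CCA apart from the serine read.
Asp-GTC, 75 nt: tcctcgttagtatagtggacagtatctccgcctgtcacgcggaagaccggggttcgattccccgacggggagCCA
Glu-TTC, 75 nt: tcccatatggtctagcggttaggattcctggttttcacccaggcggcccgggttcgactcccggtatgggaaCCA
Lys-CTT, 70 nt: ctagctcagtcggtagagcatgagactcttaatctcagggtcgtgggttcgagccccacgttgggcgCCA
Gly-GCC, 74 nt: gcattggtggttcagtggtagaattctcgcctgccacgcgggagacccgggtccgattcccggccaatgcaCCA
His-GTG, 73 nt: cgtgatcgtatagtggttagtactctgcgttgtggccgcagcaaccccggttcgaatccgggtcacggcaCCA
Cys-GCA, 70 nt: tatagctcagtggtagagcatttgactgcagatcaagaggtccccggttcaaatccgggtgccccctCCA
Val-TAC, 70 nt: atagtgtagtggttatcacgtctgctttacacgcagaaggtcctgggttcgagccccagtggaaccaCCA
Ser-GCT, 72 nt: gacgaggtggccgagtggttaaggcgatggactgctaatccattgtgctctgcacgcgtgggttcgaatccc

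Long reads were a small part of each library. There were 36880 of them in egg, 21914 in 1cell, 7673 in 256cell, 20622 in sphere, 17211 in shield and 14582 at 24hpf. They made up 0.783% of the cytoplasmic reads in egg, 0.850% in 1cell, 0.409% in 256cell, 0.656% in sphere, 0.558% in shield and 0.306% at 24hpf. The share was lowest at 24hpf and next lowest in 256cell, a library of 3324546 reads where the others held 4211882 to 7096801. Relative to egg the 24hpf share was 2.56-fold lower, a log2 ratio of -1.36 with a counting interval of -1.38 to -1.33. Against 256cell in place of egg the log2 ratio was -0.42. His-GTG, the histidine tRNA, took most of the shorter reads, and among all other cytoplasmic reads the long part was 6.92% in egg, 4.48% in 1cell, 3.01% in 256cell, 4.03% in sphere, 3.47% in shield and 2.59% at 24hpf. Intervals here and below are exact 95% intervals that cover counting error only, and reads copied by PCR and lacking molecular identifiers are not separate molecules. Mitochondrial tRNA reads, which can bear on values in RPM (library-scaled reads, as the deposited unit is named) but not on shares of the long reads, were 16.8% of all listed reads in egg, 35.7% in 1cell and 4.81% at 24hpf.

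Long reads fell into 3 length groups. The 82 sequences of 70 to 74 nt held 46.5% of the reads over all libraries and came from 16 anticodon labels. The 53 of 75 to 76 nt held 52.2% and came from only 4 labels, and the 7 of 77 nt or more held 1.24%. Reads of 75 nt or more were 58.9% of the long reads in egg, 59.1% in 1cell, 49.4% in 256cell, 50.3% in sphere, 49.8% in shield and 42.1% at 24hpf. The early libraries egg and 1cell thus lay above the other 4, and 24hpf lay lowest. Just inside and outside the length limit the makeup was mixed, with His-GTG at 15.0% of reads of 69 nt and 5.11% of reads of 70 nt, and CCA ends at 95.5% and 96.8%. The single sequences ranged from 0.577 to 775 RPM as a mean over the libraries, with a median of 10.3 RPM, and 131 of the 142 were read in all 6 libraries.

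**Figure D1:**
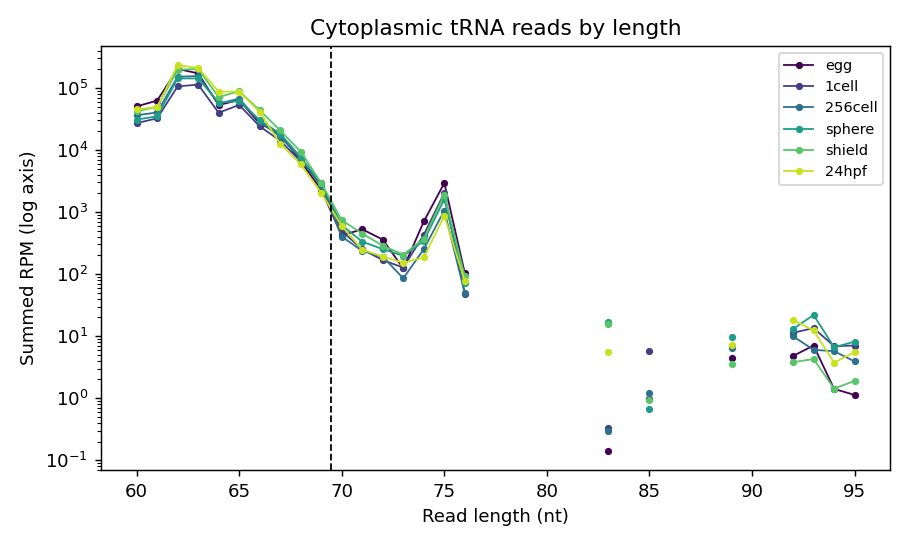
Summed RPM of cytoplasmic tRNA reads (y axis, log scale) by read length in nt (x axis), 1 line or set of points per stage library, with the limit of 70 nt dashed. Most reads lie at 62 and 63 nt with a lower peak at 65 nt, and beyond the limit of 70 nt the most read length is 75 nt, where egg is highest and 24hpf lowest.

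Aspartate and glutamate tRNAs made up most of the long reads. Asp-GTC, which decodes both aspartate codons, held 67.5% of them in egg, 48.2% in 1cell, 46.3% in 256cell, 46.9% in sphere, 52.9% in shield and 27.8% at 24hpf. Glu-TTC, a glutamate tRNA, held 11.1% in egg, 25.6% in 1cell, 20.8% in 256cell, 23.4% in sphere, 22.1% in shield and 36.6% at 24hpf. Asp-GTC led in every library but 24hpf, where Glu-TTC stood above it. Together they held from 64.4% at 24hpf to 78.6% in egg, through 43 Asp-GTC and 41 Glu-TTC sequences. As isotypes, aspartate, glutamate, lysine and glycine led with mean shares of 48.3%, 23.3%, 6.99% and 6.37%, and long reads carried 12 of the 19 isotype labels.

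The next 4 anticodons brought the total to between 90.1% and 97.0% of the long reads. Lys-CTT, a lysine tRNA, had a mean share of 6.99% from 6 sequences, and Gly-GCC, the most read glycine tRNA here, 5.75% from 8. His-GTG had 4.67% from 12 sequences and Cys-GCA, the cysteine tRNA, 4.67% from 11, of which 5 are reads over 76 nt described further on. Behind them came Val-TAC with 1.47% from a single sequence and Ser-GCT, a serine tRNA, with 1.22% from 3. The other labels with a mean of at least 10 RPM were Asn-GTT (0.906%), Pro-TGG (0.730%), Pro-GGG (0.681%), Gln-CTG (0.388%), Gly-TCC (0.312%) and Gly-CCC (0.310%). iMet-CAT, the initiator methionine tRNA that starts translation, and Pro-CGG and Ser-AGA lay below that level. In all, 17 of the 38 anticodon labels had a long read and 14 passed the level of 10 RPM.

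**Figure D2:**
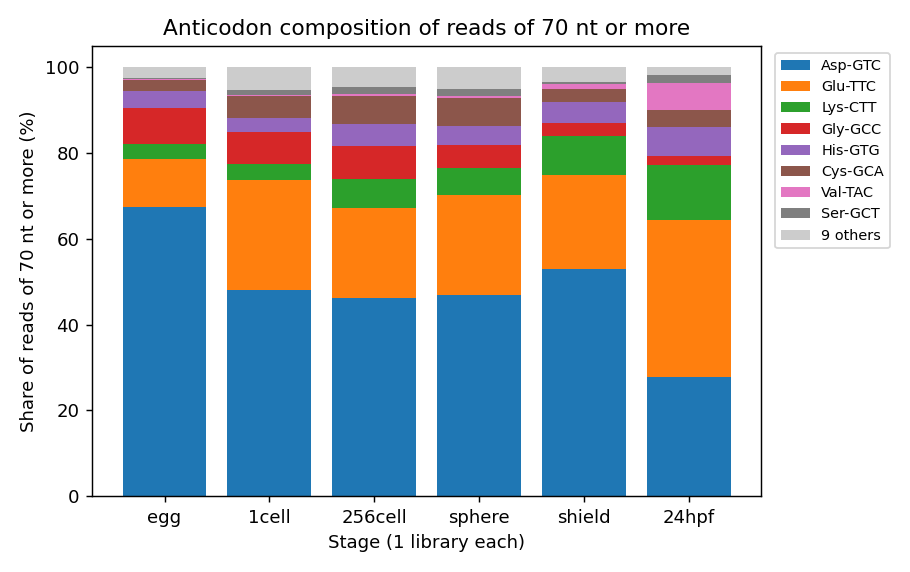
Stacked bars of the share of reads of 70 nt or more (y axis, %) held by each of the 8 leading anticodons and by the 9 others together, for each stage library (x axis). The Asp-GTC part goes from 67.5% in egg to 27.8% at 24hpf, and the Glu-TTC part from 11.1% to 36.6%.

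Labels without a long read included abundant ones. Arg-ACG, an arginine tRNA, ranked 7th among the shorter reads with a mean of 3620 RPM, and its 125 sequences reached 69 nt. Gln-TTG ranked 10th with 1196 RPM and reached 68 nt. Glu-CTC, Val-AAC, Arg-TCT, Pro-AGG, Val-CAC and Tyr-GTA also reached 69 nt. The other labels without one were Leu-AAG, Leu-CAA, Leu-TAG, Arg-CCT, Lys-TTT, His-ATG, Thr-CGT, Thr-TGT, Thr-AGT, Met-CAT, Ser-TGA, Trp-CCA and Ala-TGC. None of the leucine tRNAs, which with serine tRNAs form the type II class with a long variable arm, was read at this length. Met-CAT, which reads internal methionine codons, was likewise seen in shorter reads alone.

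The order of anticodons differed between long and shorter reads. His-GTG led the shorter reads with a mean share of 86.5%, followed by Asp-GTC (3.26%), Lys-CTT (2.83%), Glu-TTC (2.33%), Gly-GCC (1.49%) and Gln-CTG (1.30%). Among the long reads His-GTG ranked 5th and Gln-CTG 12th, while Cys-GCA and Ser-GCT, 13th and 19th among the shorter reads, ranked 6th and 8th. Over the 17 labels found at both lengths the ranks still ran broadly alike, with a Spearman rho of 0.79, and 0.68 to 0.79 within the single libraries. This is a description across labels whose reads share a library.

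His-GTG differed most between the lengths in percentage points. It held 3.87% of the long reads in egg, 3.21% in 1cell, 5.04% in 256cell, 4.46% in sphere, 4.79% in shield and 6.65% at 24hpf, against 82.3% to 89.8% of the shorter reads. The mean difference was -81.8 percentage points ± 2.41 (SD, n = 6), lower in 6 of 6 libraries (two-sided exact sign-flip permutation test within libraries, p = 0.03125). That p is the smallest that 6 libraries allow. His-GTG was chosen for this test with its lead among the shorter reads already known from earlier results of these data. The p is therefore no independent support for the difference. Only 0.023% to 0.035% of the His-GTG reads of a library were 70 nt or longer.

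Each anticodon's share of the long reads was then divided by its share of the shorter reads in the same library. With all anticodons in the shorter total, 9 of the 14 tested had a higher share among long reads (64.3% of those tested) and 2 a lower one (14.3%), at an adjusted p of 0.0398 each (exact sign-flip permutation, Benjamini-Hochberg over the 14). As a ratio Cys-GCA (mean log2 5.56) and Ser-GCT (5.44) stood further from 0 than His-GTG. The lower ones were Gln-CTG with a mean log2 ratio of -1.81 ± 0.51 (SD, n = 6) and His-GTG with -4.24 ± 0.33. Because His-GTG fills the shorter total, every other label is raised by it, and the ratios were also taken without His-GTG. There 3 of 13 were higher (23.1%) and 6 lower (46.2%), at an adjusted p of 0.0451 each in the same exact permutation test. With and without His-GTG, each called label had the smallest permutation p that 6 libraries allow, 0.03125. Its adjusted p thus depends on how many labels reached that value, so the calls are not independent of each other. Cys-GCA was higher by a mean log2 ratio of 2.71 ± 0.55, Ser-GCT by 2.60 ± 1.03 and Asp-GTC by 1.11 ± 0.69, each in 6 of 6 libraries (SD, n = 6). The Cys-GCA values include its reads over 76 nt described further on, 11.9% to 49.5% of its long RPM. Lower in 6 of 6 libraries were Gln-CTG (-4.66), Gly-CCC (-2.36), Asn-GTT (-1.69), Lys-CTT (-1.65), Gly-TCC (-1.12) and Gly-GCC (-0.98). Gly-GCC and Gly-TCC were thus higher with His-GTG in the total and lower without it. Asp-GTC and Glu-TTC fill most of the long total, which lowers the other labels in a similar way. The ratios were not taken without them, so how many of the 6 would stay lower was not tested. Glu-TTC (0.42, 5 of 6 libraries), Val-TAC (0.10), Pro-GGG (0.07) and Pro-TGG (-0.09) did not pass the test without His-GTG.

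**Figure D3:**
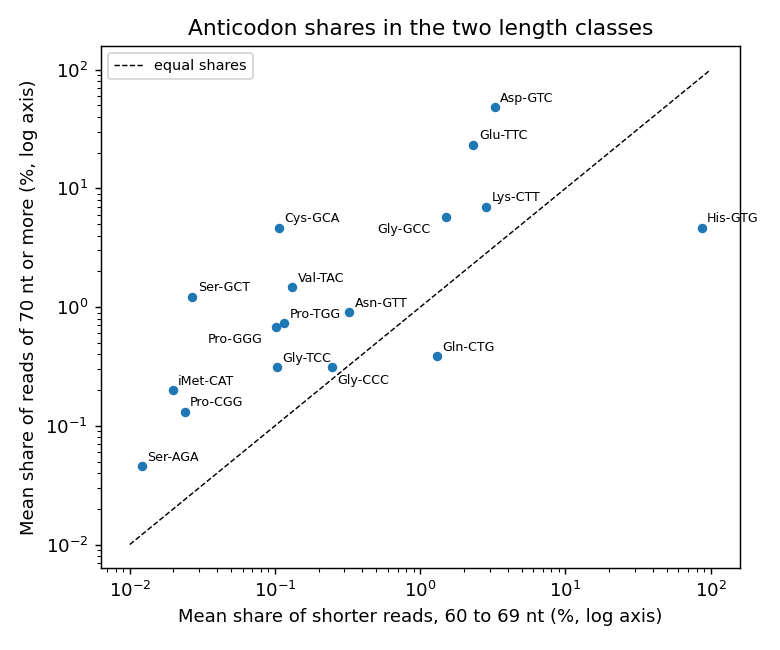
Mean share of each of 17 anticodons among reads of 70 nt or more (y axis, %, log scale) against its mean share among reads of 60 to 69 nt (x axis, %, log scale), over 6 libraries, with equal shares dashed. His-GTG (86.5% of shorter, 4.67% of long reads) and Gln-CTG lie below the line, and Cys-GCA and Ser-GCT lie far above it.

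Within an anticodon's own reads, the long part varied widely. For Asp-GTC it was 26.9% in egg, 9.48% in 1cell, 6.79% in 256cell, 7.83% in sphere, 5.39% in shield and 3.09% at 24hpf, so egg stood far above all other libraries. For Cys-GCA it was 21.9% in egg, 20.1% in 1cell, 18.4% in 256cell, 21.6% in sphere, 19.6% in shield and 24.1% at 24hpf. Part of these were the reads over 76 nt described further on, and without them the long part was 19.4% in egg, 16.1% in 1cell, 15.1% in 256cell, 16.8% in sphere, 17.7% in shield and 13.8% at 24hpf, so that 24hpf went from highest to lowest. Ser-GCT ranged from 11.4% in egg to 28.4% in sphere, and Glu-TTC from 3.99% in 256cell to 7.07% in 1cell. Gly-GCC went from 3.60% in 1cell to 0.898% at 24hpf, and Lys-CTT stayed between 0.828% and 1.62%. Gln-CTG was long in 0.05% to 0.29% of its reads. The highest and lowest library differed 8.69-fold for Asp-GTC and 1.31-fold for Cys-GCA. iMet-CAT, with 4.23 to 12.4 RPM of long reads, had a long part of 4.37% to 8.31%.

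**Figure D4:**
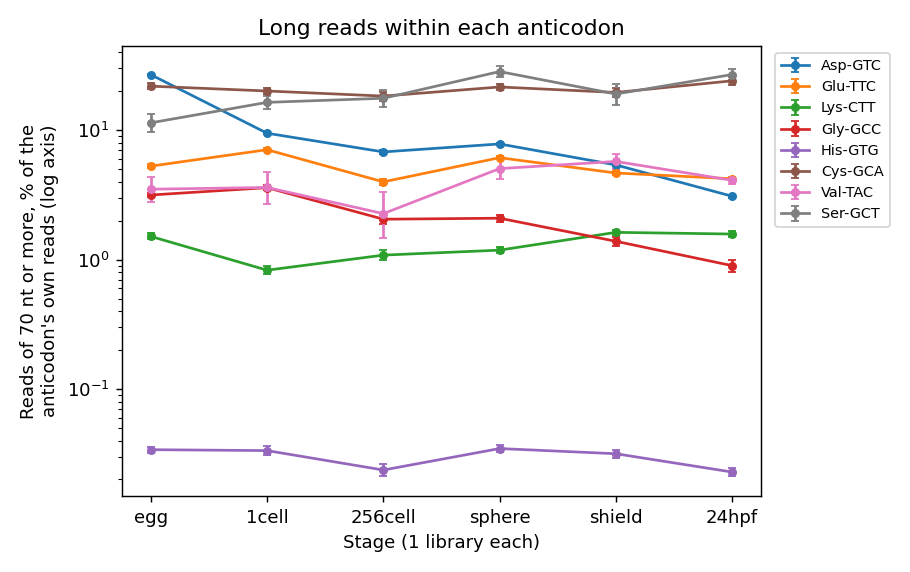
Reads of 70 nt or more as a percentage of an anticodon's own reads (y axis, log scale) in each stage library (x axis) for the 8 leading anticodons, with exact 95% counting intervals as bars. Asp-GTC goes from 26.9% in egg to 3.09% at 24hpf, Cys-GCA, its reads over 76 nt included, stays between 18.4% and 24.1%, and His-GTG is at most 0.035%.

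CCA ends were more frequent among the long reads. They were on 97.4% of the long reads in egg, 96.5% in 1cell, 95.9% in 256cell, 93.7% in sphere, 95.9% in shield and 94.4% at 24hpf, against 86.04% to 90.4% of the shorter reads. The mean was 95.6% ± 1.37 among long and 87.8% ± 1.83 among shorter reads (SD, n = 6). The difference of 7.82 points ± 1.80 was positive in 6 of 6 libraries (two-sided exact sign-flip permutation test, p = 0.03125). Cutting the classes by length may bear on this direction, since a longer read leaves fewer tRNA bases unread, but that was not tested. Just below the limit the CCA share was 80.0% at 67 nt, 88.4% at 68 nt and 95.5% at 69 nt. The value at 67 nt lies under the mean of all shorter reads, and shares at lengths under 67 nt are not given here. Above the limit the share was 90.3% at 72 nt and 100% at 75 nt. Without His-GTG, whose shorter reads mostly end in CCA, the means were 95.4% and 46.2% and the difference 49.2 points (the same exact permutation p of 0.03125). In 15 of the 17 anticodons the share was higher among long reads. Asp-GTC had CCA on 95.9% of long and 15.3% of shorter reads over all libraries, and Lys-CTT on 100% and 12.3%. Glu-TTC had 96.5% and 57.4%, and Cys-GCA had 100% at both lengths.

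Of the 142 sequences 132 ended in CCA and 10 did not. The 3 Ser-GCT reads of 70, 71 and 72 nt all belonged to them, so its long share with CCA was 0% against 76.4% of its shorter reads. They are the shown 72 nt read and the same read less 1 and 2 bases at its 3′ end, so none of the 3 reaches a CCA end. The only long Ser-AGA read had 85 nt and ended in CCA, at 0.99 RPM in egg, 5.74 in 1cell, 1.20 in 256cell, 0.68 in sphere, 0.95 in shield and 0 at 24hpf. The other 7 sequences without CCA were 2 of Asp-GTC, 3 of Glu-TTC and 2 of Gly-GCC.
Ser-AGA, 85 nt: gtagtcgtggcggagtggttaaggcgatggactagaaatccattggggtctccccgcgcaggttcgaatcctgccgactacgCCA

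The read sequences were also compared with the most abundant 74 to 76 nt read of their anticodon, a comparison chosen after the reads had been seen. Of the long Asp-GTC reads 73.4% began with its first 10 bases, 93.0% ended with its last 10 and 66.4% did both. Glu-TTC had 37.7%, 90.5% and 30.3%, and Lys-CTT 16.7%, 97.8% and 16.7%. For His-GTG the values were 10.3%, 95.4% and 7.53%, so few of its long reads began as its 76 nt read does. Among the shorter reads the last 10 bases ended 92.7% of His-GTG, 86.8% of Gly-GCC, 15.0% of Asp-GTC and 11.1% of Lys-CTT reads. Of all shorter reads 74.4% to 85.2% per library were an exact stretch of some long read, though only 21.3% of the shorter sequences were. The motif GTTCNANNC of the T-arm, searched as written on the given strand, was in 131 of the 142 long sequences (92.3%) and 82.6% of the shorter ones. In 118 of the long ones it began 24 bases before the 3′ end. Whether the reads cover whole tRNA genes was not tested.

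Much of the number of Asp-GTC and Glu-TTC sequences came from near copies of a single read. For Asp-GTC, 23 sequences had the length of its 75 nt read with substitutions, 22 of them with a single one, and 12 lacked a stretch inside it. Changes of C to T made up 9 and of G to T 7 of the single substitutions. For Glu-TTC, 21 sequences carried substitutions, 10 of them a single one, of which 5 were C to T. The exact 75 nt read held 36.2% to 49.8% of long Asp-GTC reads and 11.1% to 24.8% of long Glu-TTC reads, the latter lowest in egg and highest at 24hpf. Reads with substitutions held 52.0% of long Glu-TTC reads in egg and 27.5% at 24hpf. Whether such near copies are gene variants, modified bases or copying errors was not tested.

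The leading Asp-GTC reads were lower at 24hpf than in egg, as their sum was, but not all moved with that sum from stage to stage. The 75 nt Asp-GTC read had 1748 RPM in egg, 820 in 1cell, 454 in 256cell, 594 in sphere, 787 in shield and 246 at 24hpf. Its 71 nt copy, which lacks 4 bases after base 5, had 304 RPM in egg, 46.1 in 1cell and 51.9 at 24hpf, and the 72 nt copy that lacks 3 bases after base 3 had 156, 22.3 and 26.02. Both copies were lowest in 1cell, while the Asp-GTC sum was 1732 RPM there and lowest at 24hpf. The 75 nt copy with C63T (positions counted from the 5′ end of the lead read) had 226 RPM in egg and 53.7 at 24hpf.
Glutamate reads split. Shares of the long reads, with 1 RPM added, were compared with no test. By share 24hpf stood 2-fold or more above egg for 14 of the 41 Glu-TTC sequences. It stood 2-fold or more below egg for 10 and less than 2-fold away for the other 17. Over all 3021 sequences, most of them shorter reads, 12.8% were higher and 43.8% lower, each as a share of its length class. The added 1 RPM raised the ratio of rare falling reads, so falls can be undercounted. A Glu-TTC sequence with 30 reads in egg and 2 at 24hpf, for example, was at -0.85 and is among the 17. In RPM 11 of the 41 Glu-TTC sequences were higher and 20 lower. Of the 43 Asp-GTC sequences 5 were higher and 18 lower by share, and 0 and 31 in RPM. Over all 142 long sequences 38 were higher and 41 lower by share, and 20 and 74 in RPM. The RPM counts over all 3021 sequences are not given here, so whether these RPM counts are high was not tested. The 75 nt Glu-TTC read had 63.8 RPM in egg, 132 in 1cell, 75.2 in 256cell, 166 in sphere, 218 in shield and 215 at 24hpf, and its C4T copy went from 26.2 in egg and 58.6 in 1cell to 110 at 24hpf. Its C28T copy went the other way, from 64.7 RPM in egg and 91.4 in 1cell to 28.7 in shield and 9.11 at 24hpf, as did the G9T copy (36.5 in egg and 8.30 at 24hpf) and the C62T copy (17.6 and 1.46). These copies were named after their values were seen. The 70 nt Lys-CTT read had 94.5 RPM in egg, 81.9 in 1cell, 99.3 in 256cell, 157 in sphere, 280 in shield and 215 at 24hpf. The 73 nt His-GTG read had 63.97, 27.6, 35.2, 42.4, 68.6 and 74.5 RPM from egg on, highest at 24hpf and lowest in 1cell. The 70 nt Cys-GCA read varied less, with 39.2, 56.0, 36.4, 33.1, 38.5 and 25.2 RPM. The 74 nt Gly-GCC read had 178, 88.4, 56.2, 64.5, 37.5 and 11.4 RPM in the same order of stages. As a share of the long reads, the highest log2 ratios of 24hpf to egg among sequences with at least 50 RPM were 3.17 (Glu-TTC C4T), 2.94 (a 71 nt Glu-TTC read), 2.87 (the 75 nt Glu-TTC read) and 2.31 (Lys-CTT). The lowest were -2.72 (Gly-GCC) and -1.69, -1.41 and -1.39 (the Asp-GTC reads of 75, 72 and 71 nt).

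The 24hpf and egg libraries were compared by anticodon, as shares of the long reads on the log2(RPM + 1) scale, which shifts values of rare tRNAs. Compared with no pseudocount it understated falls of rare tRNAs, as for Gly-CCC (-1.31 against -1.95). The rise of Val-TAC was slightly understated too (4.78 against 4.90), while Gly-TCC was raised (0.36 against 0.25). Of 14 anticodons 5 were at least 2-fold higher at 24hpf, beside 24.5% of the 49 anticodon values of both lengths, and 4 were at least 2-fold lower, beside 38.8%. Counting intervals are those of the ratio of reads, with no pseudocount. Val-TAC was highest with a log2 ratio of 4.78 (counting interval 4.57 to 5.25). Its single read had 11.0 RPM in egg, 8.20 in 1cell, 7.22 in 256cell, 20.5 in sphere, 47.5 in shield and 150 at 24hpf, so each later library lay above each earlier one. Also higher were Ser-GCT at 2.24 (1.98 to 2.57), Lys-CTT at 1.81 (1.71 to 1.92), Glu-TTC at 1.73 (1.67 to 1.79) and Asn-GTT at 1.53 (0.92 to 2.29). Asn-GTT, an asparagine tRNA, was read unevenly, with 4.93 RPM in egg, 37.7 in 1cell, 2.71 in 256cell, 85.9 in sphere, 58.6 in shield and 6.83 at 24hpf.

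On the lower side stood Gly-GCC at -1.88 (-2.07 to -1.74), Gln-CTG at -1.61 (-2.76 to -1.27), Gly-CCC at -1.31 (-3.13 to -0.96) and Asp-GTC at -1.28 (-1.33 to -1.23). With no pseudocount Gln-CTG was at -1.98 and Gly-CCC at -1.95. Asp-GTC differed in direction between the lengths, with a log2 ratio of 0.88 in the shorter reads. Its long reads went from 3507 RPM in egg to 660 at 24hpf. The Gly-GCC sum was 435 RPM in egg, 270 in 1cell, 181 in 256cell, 191 in sphere, 126 in shield and 53.2 at 24hpf. Ser-GCT and Asn-GTT also differed in direction, at -0.60 and -1.75 in the shorter reads. The others past 2-fold moved the same way in the shorter reads. These were Val-TAC (3.30 there), Glu-TTC (0.70), Lys-CTT (0.39), Gln-CTG (-1.19), Gly-GCC (-1.42) and Gly-CCC (-2.87). Less than 2-fold apart were His-GTG (0.78), Cys-GCA (0.64), Gly-TCC (0.36), Pro-GGG (0.07) and Pro-TGG (-0.55). Their shorter reads were at -0.009, -0.90, -0.66, -1.31 and -1.17 in the same order.

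The scaling shifted these values together. The median over the 14 long values was 0.50 as a share of long reads and -0.63 in RPM, and that of the 35 shorter values was -0.66 as a share of shorter reads. In RPM 2 anticodons were higher and 6 lower, beside 20.4% and 38.8% of the 49 values, and as a share of long reads other than Asp-GTC, added after the data were seen, again 2 and 6. In RPM Glu-TTC was at 0.59, Lys-CTT at 0.68 and Asn-GTT at 0.40, while Val-TAC was at 3.65 and Ser-GCT at 1.10. With 256cell in place of egg, 2 were higher and 5 lower, and Ser-GCT was at 0.10 and Asp-GTC at -0.74. The shares of the 49 values against 256cell and without Asp-GTC are not given here, so whether those counts are high was not tested.

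Grouped by amino acid, the lists gave the following, with earlier results of these data known when they were drawn up. The counts are of shares of the long reads unless RPM is named, and stand beside the 24.5% higher and 38.8% lower of all 49 values. Of the 9 commonly reported donors of 5′ tRNA fragments 6 had long reads, 2 of them at least 2-fold higher (Lys-CTT and Glu-TTC) and 3 lower (Gly-GCC, Gly-CCC and Asp-GTC), with a median of -0.25. In RPM none of these was higher, and the same 3 were lower. Acidic tRNAs had 1 higher and 1 lower (0 and 1 in RPM), and their summed share went from 78.6% in egg to 64.4% at 24hpf. Basic tRNAs had 1 of 2 higher (0 in RPM), with 7.49% in egg and 19.4% at 24hpf. Glycine tRNAs, the measured part of the glycine and alanine list, had 2 of 3 lower on both scales, with 8.80% and 2.53%. Proline tRNAs had none of 2 past 2-fold and a median of -0.24, but both were 2-fold lower in RPM. The amide tRNAs (Asn, Gln) had 1 higher and 1 lower (0 and 1 in RPM). The branched, type II and hydroxyl lists each rested on a single anticodon, Val-TAC or Ser-GCT, and no methionine tRNA passed the level of 10 RPM.

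The 3 later stages were set against the 3 earlier ones by mean log2 share. Of 14 anticodons 2 were at least 2-fold higher, beside 10.2% of all 49 values, Val-TAC at 2.60 and Asn-GTT at 1.97. Lower by 2-fold were 3, beside 24.5%: Gln-CTG at -1.62, Gly-CCC at -1.23 and Gly-GCC at -1.23. Without the 24hpf library 1 was lower, with Gly-GCC at -0.94 and Gly-CCC at -0.83, and without 1cell 2 were lower, with Gly-CCC again at -0.83. The shares of the 49 values without these libraries are not given here. Only for Val-TAC did every later share lie above every earlier one (6.12% of the 49 values did), and for Gln-CTG and Gly-GCC every later share lay below (8.16%). In RPM Val-TAC and Lys-CTT lay above (20.4% of the 49 did) and Gln-CTG and Pro-TGG below (14.3%), while Gly-GCC overlapped. Gln-CTG had 25.2 RPM in egg, 20.2 in 1cell, 17.4 in 256cell, 8.49 in sphere, 6.41 in shield and 2.93 at 24hpf. Lys-CTT was just under 2-fold higher at 0.99, and past it with median-ratio scaling (1.35) and without 256cell (1.29) or sphere (1.26).

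The edgeR quasi-likelihood test on the recovered reads took the stages of each period as if they were replicates, so its p-values measure the spread between stages. It called none of the 14 long anticodons, with 4 at an unadjusted p under 0.05, and none with DESeq2 size factors, beside 2.04% of the 49. How many of the 49 had an unadjusted p under 0.05 is not given here. The lowest adjusted p were those of Gln-CTG (0.059) and Val-TAC (0.083). On single sequences, added after the data were seen, it called 57 of 3021 (1.89%), and 4 of the 142 long ones, 2 higher and 2 lower in later stages. These were a Gly-GCC read of 83 nt, the Val-TAC read and 2 Asp-GTC reads. With DESeq2 size factors it called 38 of 3021 (1.26%) and 2 of the long ones, the 83 nt Gly-GCC read and the 74 nt Asp-GTC read. Without sphere 24 long sequences were called, without egg 1 and without 24hpf 2. The calls over all 3021 sequences in these repeats are not given here, so whether 24 is a high share was not tested.

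The 83 nt Gly-GCC read was the clearest of these, and it is singled out after its values were seen. It holds a 71-base tRNA body with 4 bases before it and 8 after it, and no CCA. The body differs at G38A and C60A from the 74 nt Gly-GCC read that has the T-arm motif, counted from that read's 5′ end. Both are shown with the read's outer bases in capitals and the CCA in capitals.
Gly-GCC, 83 nt: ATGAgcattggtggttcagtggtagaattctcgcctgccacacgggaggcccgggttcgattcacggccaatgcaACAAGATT
Gly-GCC, 74 nt with the motif: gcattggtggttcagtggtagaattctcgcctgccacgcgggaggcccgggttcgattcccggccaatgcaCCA
It was read 1 time in egg, 2 times in 1cell and 1 time in 256cell, then 98 times in sphere, 66 in shield and 34 at 24hpf. In RPM that was 0.14, 0.33, 0.30, 16.6, 15.7 and 5.53. The ratio of later to earlier reads per library read was 50.3 (19.3 to 186), and edgeR gave a log2 fold change of 5.55 (adjusted p 0.00546). It was called in 6 of 6 repeats without a library, with adjusted p from 0.00101 to 0.0311. Every listed sequence reached at least 13 reads in some library, and this read did so only in later ones. The ratio, its interval and the edgeR values do not allow for that. Since the read was singled out by this same contrast, the repeats without a library are no independent support.

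Shorter Gly-GCC reads with bases past the tRNA body appeared at the same stages. A search for reads in which the T-arm motif began more than 24 bases before the 3′ end was chosen after the data were seen. It found only this long read and 8 shorter ones, all of Gly-GCC and none ending in CCA. The search could find only reads that hold the motif, which 82.6% of the shorter sequences do. In the 74 nt read with the motif those 24 bases include the CCA. Reads whose extra bases stand in place of CCA and are no longer than it could thus not be found. The 8 match the body of the 74 nt read with the motif exactly, and then carry other bases than the 83 nt read. In 6 of them these were 6 or 7 bases starting GCAG, and in 2 they were GATA. The most abundant of each kind is shown with those bases in capitals.
Gly-GCC, 65 nt: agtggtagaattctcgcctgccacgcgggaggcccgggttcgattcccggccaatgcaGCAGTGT
Gly-GCC, 68 nt: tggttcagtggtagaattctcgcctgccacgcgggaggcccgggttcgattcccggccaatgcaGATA
Together the 8 had 0 reads in egg and in 1cell, 3 in 256cell, 179 in sphere, 201 in shield and 232 at 24hpf. Later libraries thus held 612 reads and earlier ones 3, a ratio per library read of 207 (70.6 to 1008). Every listed sequence reached at least 13 reads in some library, and each of the 8 did so only in later ones. Rarer reads of this kind may thus go unlisted, and the ratio and its interval do not allow for that. Among Gly-GCC reads of 71 to 74 nt in egg, 2.82 RPM had the motif and 432 RPM did not. Extra bases on reads without the motif were not searched for, so the ratio covers reads with it alone. Whether these reads match glycine tRNA genes was not tested, since no genome of the files' build was used here.

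The 71 to 74 nt Gly-GCC reads divided by the same motif. The 5 without it went from 432 RPM in egg, 269 in 1cell and 179 in 256cell to 173 in sphere, 105 in shield and 28.5 at 24hpf. The 2 with it had 2.82 RPM in egg, 0.49 in 1cell, 2.11 in 256cell, 1.19 in sphere, 4.75 in shield and 19.2 at 24hpf. The lower Gly-GCC sum at 24hpf thus came from the reads without the motif, and the reads with it were highest there. This split was made after the values were seen and has no test.

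**Figure D5:**
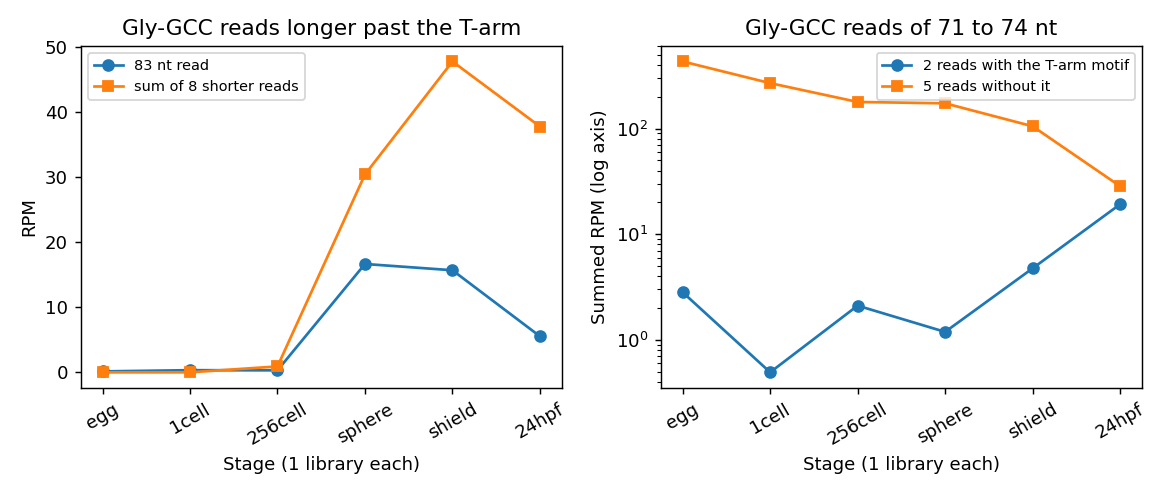
Left, RPM of the 83 nt Gly-GCC read and the sum of the 8 shorter Gly-GCC reads with bases past the tRNA body, by stage library. Right, summed RPM (log axis) of the Gly-GCC reads of 71 to 74 nt with and without the T-arm motif. The reads of the left panel, found by a search that needs the motif, are at most 0.90 RPM up to 256cell and at least 5.53 RPM from sphere on. Every listed sequence reached at least 13 reads in some library, and those of the left panel did so only in later ones.

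The 2 Asp-GTC reads that edgeR called lower in later stages both differ from the 75 nt read at base 9. Base 9 of cytoplasmic aspartate tRNA is known in human cells as an adenosine that can carry a methyl group. The 74 nt read, which lacks that base, had 37.1 RPM in egg, 28.2 in 1cell, 9.93 in 256cell, 2.88 in sphere, 2.37 in shield and 3.74 at 24hpf (edgeR log2 fold change -2.84, adjusted p 0.0326). The 75 nt read with A9G had 62.0, 33.5, 13.8, 6.62, 4.27 and 6.18 RPM (-2.49, adjusted p 0.0465).
Asp-GTC, 74 nt: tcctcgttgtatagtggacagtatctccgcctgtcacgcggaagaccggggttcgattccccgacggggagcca
In both reads every later library lay below every earlier one, but they were chosen by this same contrast. A 74 nt Asp-GTC read that lacks 1 base after base 6 went from 19.7 RPM in egg to 1.46 at 24hpf. Its edgeR log2 fold change was -1.91, and it was not called. The 71 nt copy that lacks 4 bases after base 5, base 9 among them, had -0.20. Reads with A9T had 31.3 RPM in egg and 3.09 at 24hpf, and those with A9C 11.6 and 1.30, and edgeR did not call these. The 4 reads that differ from the lead at base 9 alone were 4.05% of long Asp-GTC reads in egg, 4.86% in 1cell, 2.79% in 256cell, 0.941% in sphere, 0.746% in shield and 2.17% at 24hpf. Of the 6 edgeR repeats without a library, the 74 nt read that lacks base 9 was called in 5 and the A9G read in 3. Without egg neither was called, with adjusted p of 0.0815 and 0.126, and with size factors the A9G read had 0.0649. Grouping by base 9 was done after the values were seen, and whether methylation or the ALKB treatment moved with it was not tested. The Val-TAC read had an edgeR log2 fold change of 3.48 (adjusted p 0.0361). With size factors its adjusted p was 0.0515 and without 24hpf 0.142, and it was called in 2 of 6 repeats without a library.

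Some long reads held a 5′ part that the lead read of their label does not have. In 3 of the 12 long His-GTG reads, 70 to 74 nt long, the tRNA part followed the same run of 15 bases, in capitals here, which resembles the end of a 5′ adapter used for small-RNA libraries.
His-GTG, 70 nt: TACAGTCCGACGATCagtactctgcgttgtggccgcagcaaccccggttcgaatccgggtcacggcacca
They were 13.5% to 19.3% of the long His-GTG RPM. In 5 of the 11 Cys-GCA reads, 89 to 95 nt long and nested in each other, only the last 28 bases were shared with the other cysteine reads. The 5′ part, in capitals, resembles the 3′ part of 5S ribosomal RNA, and it was not compared with a reference.
Cys-GCA, 95 nt: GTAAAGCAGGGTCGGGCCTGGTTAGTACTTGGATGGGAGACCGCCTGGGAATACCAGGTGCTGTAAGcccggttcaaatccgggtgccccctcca
They were the longest reads of the table and held 14.1% of long Cys-GCA RPM in egg, 23.9% in 1cell, 20.9% in 256cell, 26.5% in sphere, 11.9% in shield and 49.5% at 24hpf. Without both sets the log2 ratio of 24hpf to egg was -0.08 for Cys-GCA and 0.84 for His-GTG, against 0.64 and 0.78 with them. The counts of anticodons past 2-fold did not differ without them. Without both sets 10 anticodons in place of 9 had a higher share among long reads than among shorter ones, and 2 again a lower one.

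Between neighbouring stages the steps depended on the scaling. From egg to 1cell, which both precede broad embryonic transcription, 6 of 14 anticodons were at least 2-fold higher as a share of long reads, beside 40.8% of the 49 values, and none was lower, beside 0%. In RPM only Asn-GTT was 2-fold higher at that step (14.3% of the 49) and only Asp-GTC, which held 67.5% of the long reads in egg, was lower (6.12%). From shield to 24hpf 7 were 2-fold lower in RPM, beside 32.7%, and Val-TAC alone was higher, beside 6.12%. The following values are of shares of the long reads. Asn-GTT was higher at 3.24 from egg to 1cell. At 1cell to 256cell Asn-GTT was lower by 2-fold at -2.75, beside 10.2% of the 49 values. From 256cell to sphere Asn-GTT was higher at 3.95 (6.12% of the 49) and Gln-CTG lower at -1.56 (2.04%). From sphere to shield Gly-CCC (-1.63), Ser-GCT (-1.40) and Cys-GCA (-1.06) were lower, 3 of 14 beside a similar 20.4% of the 49. In RPM Cys-GCA was at -0.84 at that step. At the last step, to 24hpf, Val-TAC (2.42) and Ser-GCT (1.71) were higher by share, beside 8.16% of the 49, and Asn-GTT (-2.14) lower, beside 26.5%. Asn-GTT thus crossed 2-fold at 4 of the 5 steps. The single 70 nt reads under it did not move alike, the main one going from 0.60 RPM in 256cell to 80.8 in sphere. Asn-GTT had only 9 long reads in 256cell and 35 in egg, of which the main one gave 2 and 1. Its steps to and from these stages thus rest on few reads.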

How the data were processed

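The authors deposited the cytoplasmic reads as RPM per distinct read sequence, with an isotype and an anticodon label. The reads had been handled with cutadapt 3.4 and Bowtie2 2.4.2 on build GRCz11, per the submitters' processing notes. How the tools were set, and how a read matching more than 1 gene was assigned, is not given in the sources used here. Every value was a whole multiple of the step of 1 read (100% within 0.01 reads), so whole read counts were recovered from RPM. A table of mitochondrial tRNAs, in RPM too, was used only for its share of reads and was not otherwise analysed here.

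Members were the sequences of 70 nt or more. RPM was summed per anticodon, a pseudocount of 1 RPM added, and the sum divided by the library's reads of the same length class. Anticodons averaging 10 RPM or more were compared, and 2-fold differences counted. Long and shorter reads were paired within the 6 libraries in exact sign-flip permutation tests. Reads were tested with edgeR 4.0.16 (R 4.3.3, quasi-likelihood, TMM, Benjamini-Hochberg over the whole table, threshold 0.05), with DESeq2 1.42.0 size factors as an alternative. Shares have exact Clopper-Pearson intervals, and the floor of 3 reads was 0.423 to 0.902 RPM. The tests were run on simulated data first. Unlike the data, these had equal totals of long and shorter reads, or replicates within a period. The runs thus checked the code alone.

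Named were the 8 leading anticodons, those past 2-fold, the 6 highest and 6 lowest of long against shorter reads, the 6 leading of the shorter reads, labels absent at one length, all Ser, Leu and Met labels, the 8 leading sequences, the 4 highest and 4 lowest with at least 50 RPM, the longest, and the lead of each leading anticodon. Members and lists were chosen with earlier results of these data known. Alternatives were other length limits, scalings, pseudocounts, filters, reference stages, reads with CCA alone, reads without His-GTG and each library left out.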

Additional observations from a re-analysis of the deposited data

How the results depend on the processing

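No paired analysis was possible because each stage has 1 library, so the stages compared share fewer than 2 replicate numbers; only the long and shorter reads of a library were paired. Length limits moved most counts. At 24hpf against egg the 5 higher and 4 lower anticodons were 8 and 7 from 68 nt, 5 and 2 from 72 nt, and 3 and 1 from 75 nt. Later against earlier, the 2 higher and 3 lower were 1 and 0 from 72 nt and 0 and 0 from 75 nt. The log2 share of long reads, -1.36, was -0.67 from 68 nt, -1.70 from 72 nt, -1.84 from 75 nt, -0.42 against 256cell, -1.13 in RPM and -1.42 without His-GTG. The higher count at 24hpf was 2 in RPM, 1 as a share of all cytoplasmic reads, 2 against 256cell and 2 without Asp-GTC. A pseudocount of 10 RPM left 2 lower at 24hpf and 1 lower in later stages, and turned Gly-CCC to 0.17. A filter of 100 RPM left 2 and 2 at 24hpf, and 0 and 1 in later stages. Median-ratio scaling left 1 lower in later stages, and edgeR without a filter gave 5. Long against shorter, the 9 higher and 2 lower were 17 and 1 from 68 nt, 6 and 1 from 72 nt, 3 and 1 from 75 nt, 4 and 1 at 100 RPM and 3 and 6 without His-GTG. Fewer anticodons were tested at longer limits and higher filters, and the cause of the shifts was not tested. For most of these settings the shares of all anticodon values of both lengths are not given here. Leaving out a library gave 2 to 3 higher and 1 to 4 lower in later stages. With 5 libraries the exact sign-flip p cannot go below 0.0625, so the long against shorter counts became 0 to 0, while the CCA difference stayed between 7.35 and 8.25 points and that of His-GTG between -82.4 and -81.0. Rare labels are limited by depth: Gly-CCC had 9 long reads at 24hpf and Gln-CTG 18, and Asn-GTT had 9 in 256cell.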
